A study of Saccharomyces cerevisiae with 22 samples.

Results

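The genes that carry acetyl-CoA through mevalonate and squalene to ergosterol were followed step by step in Saccharomyces cerevisiae. Members were the 30 genes of a written list of the pathway, its partner proteins and 1 branch, matched to probe sets by gene symbol. All 30 were measured, each by 1 probe set of its own, among 5449 named genes on the array.

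Yeast makes ergosterol, the main sterol of its membranes, from acetyl-CoA. The first steps give mevalonate and then isoprenoid units, which are joined to farnesyl diphosphate and to squalene, and none of these steps uses molecular oxygen. From squalene onwards oxygen is a substrate of 5 enzymes, encoded by ERG1, ERG11, ERG25, ERG3 and ERG5. Cells without oxygen therefore cannot finish the pathway, and they grow on sterol taken up from the medium. The transcripts are known to be under the control of factors that read sterols (Upc2p and Ecm22p) and haem (Hap1p, Rox1p).

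The cells were CEN.PK113-1A, a prototrophic haploid of mating type alpha, in glucose-limited chemostats at a fixed dilution rate, which holds the growth rate constant. The gas feed held 0 (anaerobic), 0.5, 1, 2.8 or 20.9% (fully aerobic) oxygen. All cultures, the aerobic ones too, were fed ergosterol and a Tween detergent that carries oleic acid. At 2.8 and 20.9% oxygen growing cells were added when the feed was started, to prevent oscillations. Steady state samples gave 4 arrays at each level except 1% oxygen, which had 6 (replicates 2 to 7). The cultivations numbered 4 at 0 and 20.9% oxygen but 2 at 0.5 and at 2.8%. At 1% oxygen 4 cultivations were run and 1 of them was sampled 4 times, which makes more samples than the 6 arrays. Replicate 1 is absent there, so how many cultivations the 6 arrays at 1% represent is not known. Which arrays share a chemostat is not labelled, so p-values partly measure the spread between samples of the same vessel. Replicates 2 and 4 at 2.8% oxygen were collected by direct centrifugation and all others in cold buffer.

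Levels are log2 intensities after Robust Multichip Average normalisation, which scales all arrays to the same distribution, and array medians lay between 9.04 and 9.10. A level is a share of the RNA on the array, so fewer cells that express a gene and less transcript per cell cannot be told apart. A positive log2 change means a higher level at the higher oxygen supply. "Intermediate" is the average of the 3 level means at 0.5, 1 and 2.8% oxygen (14 arrays). Genes were called at a Benjamini-Hochberg adjusted p under 0.01 in limma, adjusted over the 5449 genes. As a check of the mating type, the 4 alpha-specific genes had level means from 6.66 (MF(ALPHA)2 at 0% oxygen) to 14.12. The lowest level mean of MF(ALPHA)1 was 12.52. The level means of the 6 a-specific genes lay between 5.43 and 8.46, a range that MF(ALPHA)2 and SAG1 (8.33) entered at 0% oxygen.

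Some replicates deviated from their level over the whole set of members. At 0% oxygen, replicates 1 and 2 lay above their group over the 30 members, with mean deviations of 0.17 and 0.17, and replicates 3 and 4 lay below it (-0.17 and -0.18). At 20.9% oxygen replicate 3 lay above (0.18) and replicate 4 below (-0.16). Over all genes, the deviations had standard deviations of 0.34 in replicate 4 at 20.9% and 0.32 in replicate 4 at 2.8% oxygen, and of 0.22 or less in the remaining 20 arrays. Calls that rest on these arrays are also given without them, but the correlations between members are not.

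Most members were highest without oxygen. Of the 30, 22 had their highest mean at 0% oxygen, 4 at 20.9%, 3 at 2.8% and 1 at 1%. The level of the highest mean was not counted over all genes. A lower level at intermediate oxygen than at 0%, called or not, was seen in 24 of 30 members and in 3069 of 5449 genes. In 12 members all 4 anaerobic samples lay above all 18 samples with oxygen, a separation seen in 7.78% of all genes: ERG10, ERG9, ERG7, ERG24, ERG26, ERG27, ERG28, ERG2, ERG4, NCP1, NSG1 and ERG29. In 2 members, HMG1 and IDI1, the anaerobic samples lay below all others (7.29% of all genes). By the moderated F test 25 members differed between the 5 levels, against 60.0% of all genes. The 5 that did not pass were ERG12, ERG8, ERG20, ERG5 and CYB5.

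**Figure D1:**
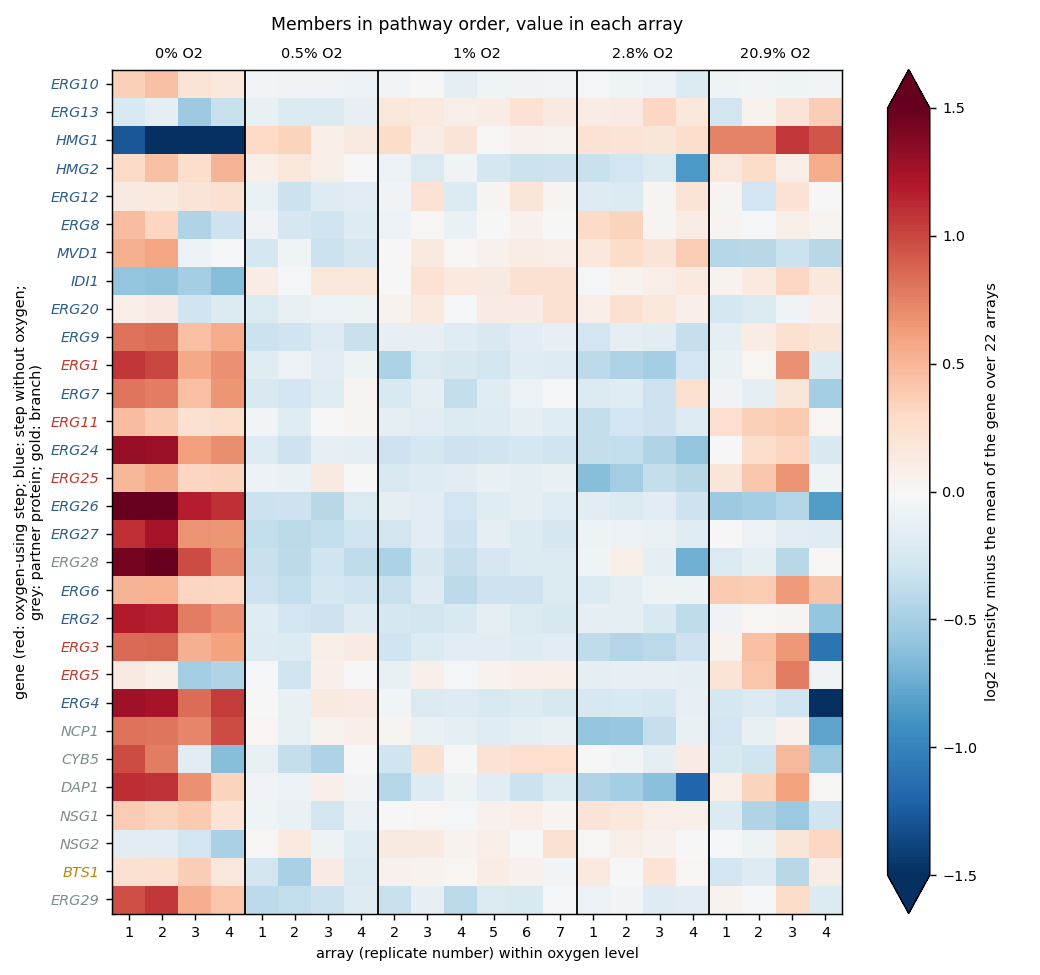
Log2 intensity of each of the 30 members (rows, in pathway order) in each of the 22 arrays (columns, grouped by oxygen level), minus the mean of the gene over all arrays. The 4 anaerobic arrays are red in most rows from ERG9 down and blue for HMG1 and IDI1, and replicates 1 and 2 at 0% oxygen are redder than 3 and 4.

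The step from no oxygen to 0.5% held most of the change. Between 0 and 0.5% oxygen 2 members were called higher and 20 lower, against 13.3% and 13.6% of all genes. Between 0 and 1% the members were 4 higher and 19 lower (14.4% and 14.2% of genes), and between 0 and 2.8% 4 higher and 18 lower (12.8% and 13.0%). Between 0 and 20.9% they were 5 higher and 16 lower (21.9% and 28.6%). The share of members called lower was thus above that of all genes in each comparison with 0%.

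Among 0.5, 1 and 2.8% oxygen few members moved. With limma 0 members were called between 0.5 and 1% oxygen, where 0.110% of genes were called higher and 0.0551% lower. At an unadjusted p under 0.05 there were 7, and with array weights 8 were called. Between 1 and 2.8% oxygen 0 were called (0.771% and 0.936% of genes), with 4 at an unadjusted p under 0.05 and 3 called with array weights. Between 0.5 and 2.8% MVD1 rose by 0.48 (SE 0.12, limma adjusted p = 0.00853), while HMG2 (-0.51, adjusted p = 0.00715) and ERG25 (-0.47, adjusted p = 0.00724) fell (2.59% of genes higher and 3.08% lower). Those 3 calls were all lost when replicate 1 at 2.8% or replicate 1 or 3 at 0.5% oxygen was left out. Leaving out replicate 1, 3 or 4 at 20.9% oxygen gave 5 calls between 0.5 and 2.8%.

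The final step to full aeration was mixed. Between 2.8 and 20.9% oxygen 9 members were called higher and 3 lower (18.6% and 21.9% of genes). Between 1 and 20.9% the counts were 7 higher and 3 lower (19.4% and 23.3%), and between 0.5 and 20.9% 4 higher and 1 lower (15.9% and 19.3%). Between 0.5 and 20.9% the total of 5 was 8 without replicate 4 at 20.9% oxygen and 3 without replicate 2 at 0.5%. It was 10 without replicate 4 at 2.8% and replicate 4 at 20.9% together.

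Against the intermediate levels taken as one, 4 members were higher and 19 lower than at 0% oxygen, where 15.8% of genes were higher and 17.3% lower. The median log2 change of the 30 members was -0.60, and that of all genes -0.04. From intermediate to 20.9% oxygen 10 members were higher and 3 lower (21.6% and 26.1% of genes), with a median of 0.08 beside -0.04 for all genes. Both comparisons use the same intermediate samples. Joined, they put 8 members in a dip, that is lower at intermediate oxygen than at either end: HMG2, ERG9, ERG1, ERG11, ERG24, ERG25, ERG6 and DAP1. Of all genes 2.81% dipped. The opposite shape, a peak, was seen in 0 of 30 members and in 5.29% of all genes. The remaining shapes were 9 members lower than at 0% and then not called, 3 higher than at 0% and then not called, 2 that fell in both steps and 1 that rose in both. MVD1 was called only as a fall and ERG5 only as a rise at 20.9%, and 5 members (ERG12, ERG8, ERG20, CYB5 and BTS1) were called in neither step. Without replicate 4 at 2.8% and replicate 4 at 20.9% oxygen, 25 members were called in the first step and 14 in the second, and 9 dipped.

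**Figure D2:**
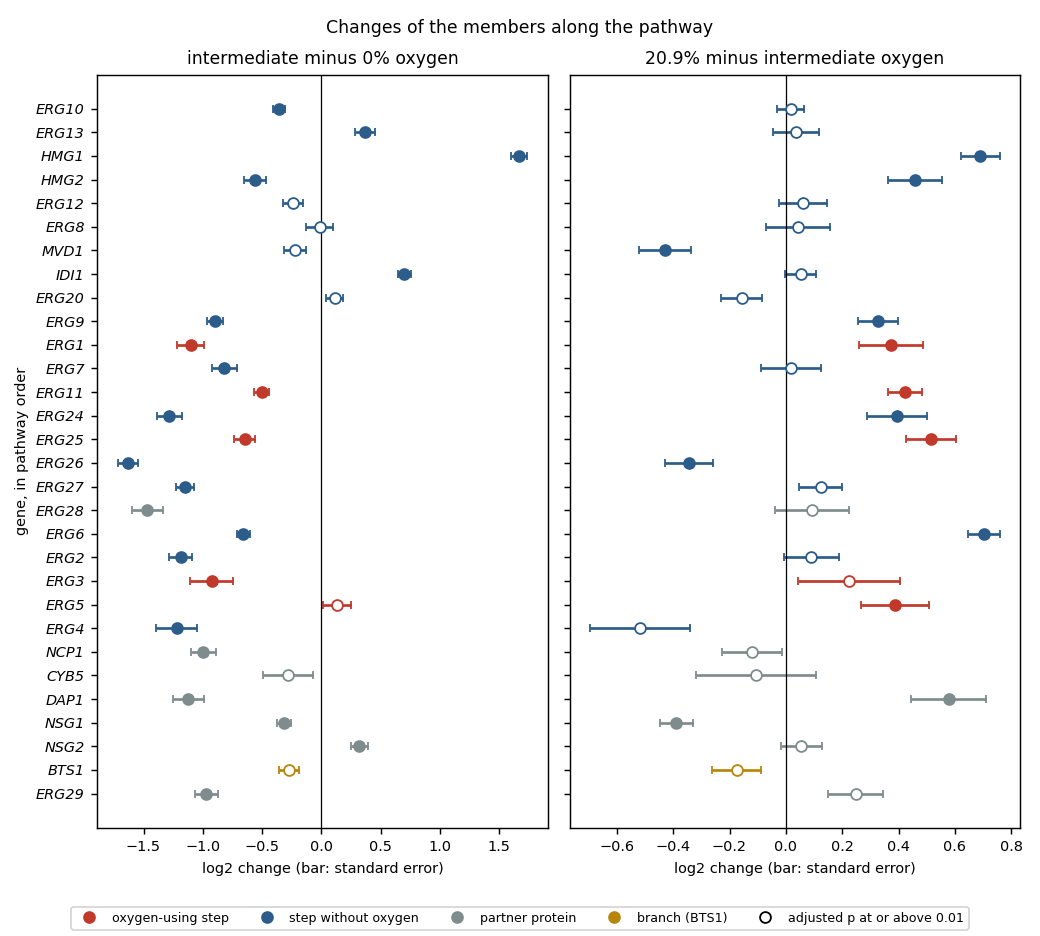
Log2 change of each member, in pathway order, from 0% to intermediate oxygen (left) and from intermediate to 20.9% oxygen (right), with bars of 1 standard error on each side. The panels differ in horizontal scale. Filled points have an adjusted p under 0.01. On the left nearly all points from ERG9 down lie below 0, and on the right the oxygen-using steps (red) all lie above 0.

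The mevalonate steps did not move as one. ERG10 (YPL028W), the acetyl-CoA thiolase that starts the pathway, had levels of 12.65, 12.72, 12.50 and 12.45 at 0% oxygen and between 12.08 and 12.29 in all 18 samples with oxygen. Its fall to intermediate oxygen was small (-0.36, SE 0.05, 1.28-fold, limma adjusted p = 3.29e-06). ERG13, HMG-CoA synthase, went the other way, from a mean of 11.41 at 0% to 11.87 at 1% oxygen (intermediate minus 0%, 0.37, adjusted p = 0.000957). Without replicate 3 at 0% oxygen that rise was 0.29 (adjusted p = 0.0105).

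HMG-CoA reductase, which makes mevalonate and is the main point of control, is encoded by HMG1 and HMG2. HMG1 is known as the form favoured with oxygen and HMG2 as the form favoured when oxygen is scarce. HMG1 (YML075C) had levels of 10.14, 9.92, 9.82 and 9.84 at 0% oxygen. They were 11.71, 11.75, 11.51 and 11.56 at 0.5%, and 11.64, 11.62, 11.60 and 11.68 at 2.8% oxygen. At 1% oxygen the lowest was 11.43, and at 20.9% the values were 12.16, 12.16, 12.48 and 12.36. The samples thus fell into 3 tiers with no overlap between 0%, the intermediate levels and 20.9% oxygen. The share of all genes with such tiers was not counted. HMG1 rose by 1.67 (SE 0.07, adjusted p = 1.4e-14) from 0% to intermediate oxygen and by a further 0.69 (SE 0.07, adjusted p = 4.48e-08) to 20.9%. The whole rise, 2.36 or 5.13-fold, was the widest range of means among the 30 members, and HMG1 alone rose in both steps.

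HMG2 (YLR450W) moved otherwise. Its levels were 9.87, 10.02, 9.85 and 10.10 at 0% oxygen and 9.67, 9.75, 9.68 and 9.58 at 0.5%. At 2.8% oxygen they were 9.25, 9.30, 9.37 and 8.72, and at 20.9% 9.75, 9.86, 9.69 and 10.14. The lowest value, in replicate 4 at 2.8%, belongs to an array that stood apart over all genes, and both calls of HMG2 given next were kept without it. HMG2 fell by 0.56 to intermediate oxygen (SE 0.10, adjusted p = 6.02e-05) and rose by 0.46 to 20.9% (SE 0.10, adjusted p = 0.000334), ending 0.10 below its anaerobic level (SE 0.12, adjusted p = 0.476).

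The kinases of mevalonate and phosphomevalonate, ERG12 and ERG8, did not pass the F test. ERG8 had levels of 10.45 and 10.32 in replicates 1 and 2 at 0% oxygen but 9.54 and 9.68 in replicates 3 and 4, and its 18 other samples, from 9.69 to 10.32, lay within that spread. MVD1, the decarboxylase that ends this segment, showed the same split at 0% (11.53 and 11.59 against 10.90 and 10.98). At 20.9% oxygen its levels were 10.57, 10.58, 10.67 and 10.57, which overlapped the lowest of the 0.5% samples (10.67 to 10.93) and lay below every sample at 1 and 2.8%. MVD1 fell by 0.43 from intermediate to 20.9% oxygen (SE 0.09, adjusted p = 0.000502). With HMG1 and HMG2 this made 2 of the 7 mevalonate genes higher and 1 lower in that step, where 21.6% of all genes were higher and 26.1% lower.

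Of the genes from isopentenyl diphosphate to squalene, IDI1 and ERG9 moved in opposite directions and ERG20 in neither. IDI1 (YPL117C), the isomerase of the isoprenoid unit, had levels of 10.74, 10.72, 10.81 and 10.68 at 0% oxygen and between 11.29 and 11.63 in the 18 samples with oxygen. Its rise of 0.70 to intermediate oxygen (SE 0.05, 1.62-fold, adjusted p = 8.51e-10) was followed by no further call (0.05, adjusted p = 0.418). ERG20, farnesyl diphosphate synthase, kept level means between 11.89 and 12.15. ERG9 (YHR190W), squalene synthase, which commits farnesyl diphosphate to sterols, had levels of 12.19, 12.22, 11.82 and 11.93 at 0% oxygen. At intermediate oxygen the levels of ERG9 lay between 11.03 and 11.25, and at 20.9% they were 11.23, 11.49, 11.61 and 11.55. ERG9 fell by 0.90 (SE 0.07, 1.86-fold, adjusted p = 8.91e-10) and regained 0.33 (SE 0.07, adjusted p = 0.000485). It was the first enzyme in pathway order of a run of lower levels that reached to the end of the pathway, with ERG5 as the exception.

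After squalene, 11 of 12 enzymes were lower at intermediate oxygen than at 0% and 0 were higher (17.3% and 15.8% of all genes). Their median log2 change was -1.01. The 7 of these enzymes that use no oxygen were all lower (median -1.18), with log2 changes from -1.63 to -0.66.

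**Figure D3:**
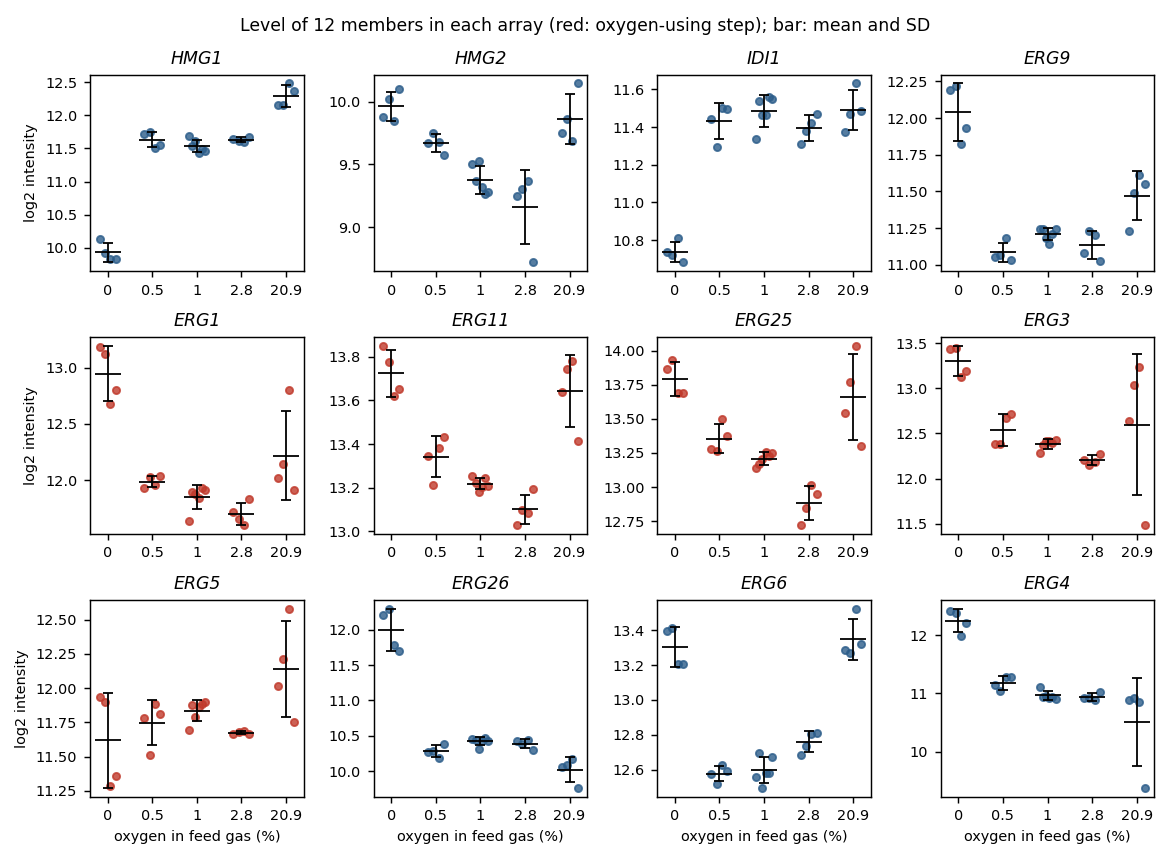
Log2 intensity of 12 members in each array against the oxygen in the feed gas (levels evenly spaced, not to scale), with the mean and standard deviation of each level (n = 4, or 6 at 1% oxygen). Each panel has its own vertical scale. HMG1 and IDI1 rise from 0%, ERG26 and ERG4 fall, and HMG2, ERG9, ERG11, ERG25 and ERG6 are lowest at intermediate oxygen.

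ERG1 (YGR175C) encodes squalene epoxidase, the first enzyme of the pathway to use oxygen. Its levels were 13.18, 13.12, 12.68 and 12.80 at 0% oxygen, 11.93, 12.03, 11.96 and 12.04 at 0.5%, and 11.72, 11.65, 11.60 and 11.83 at 2.8%. At 20.9% oxygen they were 12.02, 12.15, 12.80 and 11.91, so that replicate 3 alone reached the anaerobic range. ERG1 fell by 1.10 to intermediate oxygen (SE 0.11, 2.15-fold, adjusted p = 6.83e-08) and rose by 0.37 to 20.9% (SE 0.11, adjusted p = 0.00779). Without replicate 3 at 20.9% oxygen the rise was 0.18 (adjusted p = 0.0863). It also missed the threshold without replicate 2 at 20.9%, replicate 1, 2 or 3 at 2.8%, replicate 2 or 5 at 1%, or replicate 1 or 3 at 0.5% oxygen (adjusted p from 0.0103 to 0.0138).

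ERG11 (YHR007C) encodes lanosterol demethylase, a cytochrome P450. Its levels were 13.85, 13.78, 13.62 and 13.65 at 0% oxygen, 13.34, 13.21, 13.38 and 13.43 at 0.5%, 13.18 to 13.25 at 1%, and 13.03, 13.10, 13.08 and 13.19 at 2.8%. At 20.9% oxygen they were 13.64, 13.74, 13.78 and 13.42. The aerobic samples overlapped the anaerobic ones and, through replicate 4, the highest at 0.5%. ERG11 fell by 0.50 (SE 0.06, 1.42-fold, adjusted p = 5.48e-07) and rose by 0.42 (SE 0.06, adjusted p = 4.69e-06).

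ERG25 (YGR060W), the oxidase that removes methyl groups from the sterol, followed the same course. Its levels were 13.86, 13.93, 13.69 and 13.69 at 0% oxygen, 13.28, 13.27, 13.50 and 13.37 at 0.5%, and 12.72, 12.84, 13.01 and 12.95 at 2.8%. At 20.9% oxygen they were 13.54, 13.77, 14.03 and 13.30. All 4 aerobic samples lay above all 4 at 2.8% oxygen, by 0.78 in the mean (SE 0.11, 1.72-fold, adjusted p = 7.43e-06). From 0% to 20.9% oxygen the difference of ERG25 was -0.13 (SE 0.11, adjusted p = 0.308).

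ERG3 (YLR056W), a sterol desaturase, had levels of 13.43, 13.45, 13.12 and 13.19 at 0% oxygen, 12.39, 12.38, 12.67 and 12.71 at 0.5%, and 12.21, 12.15, 12.18 and 12.27 at 2.8%. At 20.9% oxygen they were 12.64, 13.04, 13.23 and 11.49, so that replicate 4 was the lowest of all 22 arrays. ERG3 fell by 0.92 to intermediate oxygen (SE 0.18, 1.90-fold, adjusted p = 0.00028) and its change to 20.9% was 0.22 (SE 0.18, adjusted p = 0.296). Without replicate 4 at 20.9% oxygen that change was 0.59 (adjusted p = 3.09e-05), and the gene would join those that dip. Between 0% and 20.9% oxygen ERG3 just missed the threshold (-0.70, adjusted p = 0.0106), and it passed without replicate 2 (-0.85, adjusted p = 0.0042) or replicate 3 (-0.91, adjusted p = 0.00119) at 20.9%.

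ERG5 (YMR015C), the other cytochrome P450, had levels of 11.94, 11.90, 11.28 and 11.36 at 0% oxygen and 12.01, 12.22, 12.58 and 11.75 at 20.9%. The anaerobic samples fell into an upper and a lower pair around the intermediate values (11.51 to 11.90). Its change to intermediate oxygen was 0.13 (SE 0.12, adjusted p = 0.382), and it rose by 0.39 to 20.9% (SE 0.12, adjusted p = 0.00841). That call was lost on leaving out any of 16 single arrays (adjusted p from 0.0102 to 0.0826), and the rise was smallest, 0.24, without replicate 3 at 20.9% oxygen. From 0% to 20.9% ERG5 rose by 0.52 (adjusted p = 0.00458), with adjusted p from 0.0134 to 0.0254 on leaving out replicate 3 or 4 at 0% or replicate 2 or 3 at 20.9% oxygen.

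Among the steps that use no oxygen, ERG26 fell most. ERG26 (YGL001C), the dehydrogenase that acts on the product of Erg25p, had levels of 12.21, 12.29, 11.78 and 11.70 at 0% oxygen, between 10.19 and 10.47 at intermediate levels and 10.06, 10.09, 10.17 and 9.77 at 20.9%. The 3 tiers did not overlap, a pattern that was not counted over all genes. ERG26 fell by 1.63 from 0% to intermediate oxygen (SE 0.09, 3.10-fold, adjusted p = 1.16e-12). From intermediate to 20.9% oxygen ERG26 changed by a further -0.34 (SE 0.09, adjusted p = 0.00184), or -0.26 (adjusted p = 0.018) without replicate 4 at 20.9%. ERG27, the ketoreductase of the same enzyme complex, fell by 1.15 (2.22-fold, adjusted p = 6.98e-11) and did not change further by the test (0.12, adjusted p = 0.177). ERG25, ERG26 and ERG27, which act in sequence, thus had log2 changes from intermediate to 20.9% oxygen of 0.51, -0.34 and 0.12.

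ERG7, lanosterol synthase, had levels of 11.66, 11.63, 11.30 and 11.52 at 0% oxygen and between 10.34 and 11.10 with oxygen, and fell by 0.82 (adjusted p = 1.56e-06). ERG2, a sterol isomerase, fell by 1.18 (2.27-fold, adjusted p = 1.83e-09), from levels of 13.80, 13.77, 13.37 and 13.29 to between 12.23 and 12.47 at intermediate oxygen. ERG24 (YNL280C), a sterol reductase, had levels of 11.99 and 11.97 in replicates 1 and 2 at 0% oxygen and 11.30 and 11.39 in replicates 3 and 4. All of these lay above its highest value with oxygen, 11.00. ERG24 fell by 1.28 (SE 0.11, 2.43-fold, adjusted p = 2.56e-09) and rose by 0.39 to 20.9% (SE 0.11, adjusted p = 0.00355). That rise had an adjusted p of 0.0225 without replicate 2 and of 0.0271 without replicate 3 at 20.9% oxygen.

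ERG6 and ERG4 ended the pathway's range of responses. ERG6 (YML008C), the sterol methyltransferase that sets yeast sterols apart from cholesterol, had levels of 13.39, 13.41, 13.21 and 13.20 at 0% oxygen. In the 14 intermediate samples the levels of ERG6 lay between 12.50 and 12.81, and at 20.9% they were 13.29, 13.27, 13.52 and 13.32. The fall of 0.66 (SE 0.06, adjusted p = 2.84e-09) and the rise of 0.70 (SE 0.06, adjusted p = 1.73e-09) returned ERG6 to its anaerobic level, with a difference between the ends of 0.04 (SE 0.07, adjusted p = 0.592). The enzyme uses no oxygen, and its log2 change to 20.9% oxygen stood beside 0.51 for ERG25, the oxygen-using step with the largest value. That difference was not tested.

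ERG4 (YGL012W), the reductase of the last step, had levels of 12.43, 12.39, 11.99 and 12.20 at 0% oxygen, 11.14, 11.04, 11.29 and 11.28 at 0.5%, and 10.92, 10.92, 10.89 and 11.03 at 2.8%. At 20.9% oxygen they were 10.89, 10.93, 10.85 and 9.38. The aerobic value of replicate 4 was far under those of the other arrays, which lay in a narrow band. ERG4 fell by 1.22 to intermediate oxygen (SE 0.18, 2.33-fold, adjusted p = 7.66e-06), and its change to 20.9% did not pass (-0.52, SE 0.18, adjusted p = 0.0157). That change passed when replicate 1, 2 or 3 at 20.9% oxygen was left out, which gives replicate 4 more weight (-0.66 to -0.63, adjusted p from 0.00644 to 0.0098). It did not pass without replicate 4, where the aerobic values, 10.85 to 10.93, stood beside an intermediate mean of 11.03. Over all alternatives run, the change lay between -0.66 and -0.13, with limma adjusted p from 0.00644 to 0.138.

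The 5 oxygen-using steps were set beside the 25 other members, without a test of the difference. From 0% to 0.5% oxygen the median log2 change was -0.44 for the oxygen-using steps (0 higher and 3 lower) and -0.48 for the others (2 higher and 17 lower). Of all genes 13.3% were higher and 13.6% lower. The others include the mevalonate steps, and the 7 other steps after squalene had a median of -1.17 (-1.71 to -0.73, all 7 lower). From 0.5 to 2.8% all 5 oxygen-using steps had negative log2 changes (-0.47 to -0.07, median -0.29), 1 of them called, while 18 of the 25 others had positive ones (median 0.10). Over all genes 2736 of 5449 had positive changes in that step, and 2.59% were called higher and 3.08% lower. From 2.8 to 20.9% all 5 oxygen-using steps had positive changes (0.40 to 0.78, median 0.52), 3 of them called, and among the others 6 were called higher and 3 lower (median 0.03). There 2523 of 5449 genes had positive changes, and 18.6% were called higher and 21.9% lower. From intermediate to 20.9% oxygen 4 of 5 oxygen-using steps were called higher and 0 lower (median 0.39), beside 6 higher and 3 lower of the other 25 (median 0.05). Of all genes 21.6% were higher and 26.1% lower. The count of 4 fell to 2, ERG11 and ERG25, without replicate 2 or 3 at 20.9% oxygen, replicate 1, 2 or 3 at 2.8%, replicate 2 or 5 at 1% or replicate 1 at 0.5%. It was 3 without replicate 1 at 20.9%, replicate 4 at 2.8%, replicate 3, 4, 6 or 7 at 1% or replicate 2, 3 or 4 at 0.5%. It rose to 5 without replicate 4 at 20.9%.

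Over the whole range from 0 to 20.9% oxygen the oxygen-using steps had a median of -0.13, with 1 called higher (ERG5) and 1 lower (ERG1). The others had a median of -0.54, with 4 higher and 15 lower (21.9% and 28.6% of all genes). Among them the 7 other steps after squalene had a median of -1.03 (6 lower and 0 higher). The median of the oxygen-using steps minus that of all others was 0.41 from 0 to 20.9%, 0.34 from intermediate to 20.9% and -0.09 from 0% to intermediate oxygen. Leaving out 1 array at a time kept these differences between 0.35 and 0.54, between 0.22 and 0.47 and between -0.14 and -0.04. The last depends on which genes are the others. From 0% to intermediate oxygen the oxygen-using steps had a median of -0.65, all others -0.56 and the 7 other steps after squalene -1.18. The genes were chosen by their chemistry and with results of these data known, so no test was made over them, and 5 genes of which some act on each other's products are not 5 independent cases.

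**Figure D4:**
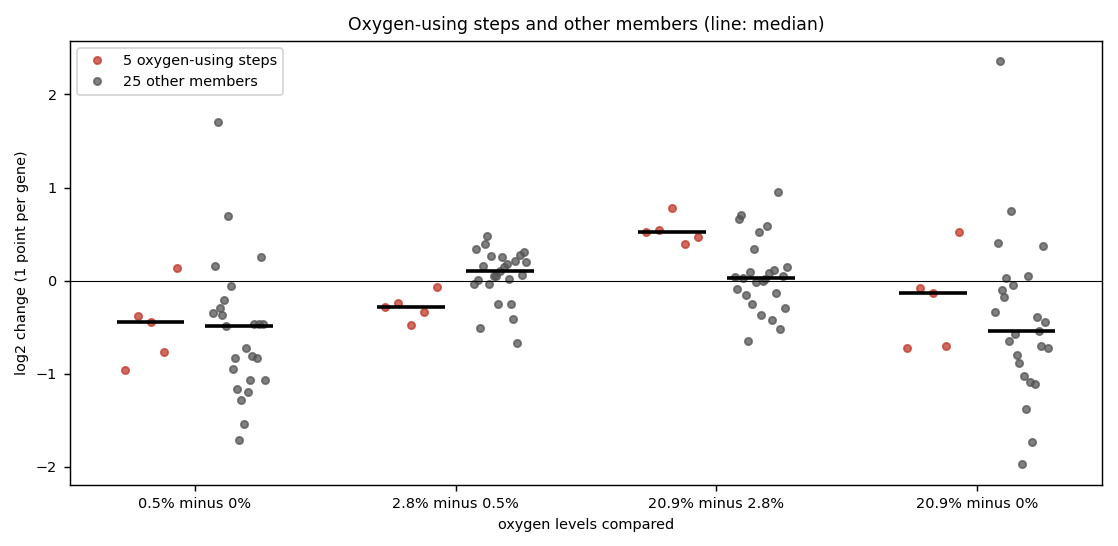
Log2 change of each member between 4 pairs of oxygen levels, for the 5 oxygen-using steps (red) and the 25 other members (grey), with the median of each as a black line. From 2.8 to 20.9% oxygen the 5 red points lie between 0.40 and 0.78, with a median of 0.52 beside 0.03 for the others.

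Array by array, the mean level of the oxygen-using steps minus that of the other members depends on probe brightness, and only its changes between levels can be read. It was 1.87 ± 0.03 (SD, n = 4) at 0% oxygen, 1.93 ± 0.08 (n = 4) at 0.5%, 1.76 ± 0.04 (n = 6) at 1%, 1.59 ± 0.08 (n = 4) at 2.8% and 2.08 ± 0.30 (n = 4) at 20.9%. At 20.9% oxygen it ranged from 1.69 in replicate 4 to 2.38 in replicate 3, so this difference spread far more between the aerobic arrays than between those of any other level. The mean of the other members alone spread more at 0% (SD 0.20) than at 20.9% (SD 0.09). At 0.5, 1 and 2.8% some arrays share a vessel. Replicate 4, with the lowest value at 20.9%, lay below the highest value at 2.8% (1.71).

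Of the oxygen-using steps, ERG1, ERG11, ERG25 and ERG3 varied together across the 22 arrays, and ERG5 less so. The median Pearson correlation of their 10 pairs was 0.82, with 6 above 0.5. It was 0.39 for the 435 pairs of all members and 0.0073 for all pairs of genes. ERG5 correlated at 0.14 with ERG1, 0.24 with ERG3, 0.36 with ERG11 and 0.41 with ERG25. After the mean of each oxygen level was taken away, the medians were 0.82, 0.33 and 0.0046. ERG5 then correlated at 0.84 with ERG1, ERG11 and ERG25 and at 0.76 with ERG3. Steps after squalene had medians of 0.75 and 0.67 in their 66 pairs, and the mevalonate steps 0.07 and 0.28 in 21 pairs. These are descriptions over arrays that share level, vessel and normalisation. HMG1, IDI1, ERG13 and NSG2 had negative median correlations with the rest of the members (-0.61, -0.62, -0.47 and -0.45).

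Partner proteins followed the late pathway in part. The cytochrome P450 enzymes receive electrons through NCP1, the P450 reductase, and CYB5, cytochrome b5, serves the pathway's desaturation. NCP1 had levels of 12.47, 12.46, 12.39 and 12.63 at 0% oxygen and between 10.86 and 11.73 with oxygen, and fell by 0.99 to intermediate oxygen (SE 0.11, 1.99-fold, adjusted p = 1.11e-07) without a further call. CYB5 at 0% oxygen had levels of 12.16 and 11.94 in replicates 1 and 2 but 11.00 and 10.54 in replicates 3 and 4, a spread wider than all its samples with oxygen (10.62 to 11.66), and it was called in no contrast. DAP1, a haem-binding partner of Erg11p, dipped: its means were 11.68, 10.84, 10.64, 10.18 and 11.13 in order of oxygen. Its fall was 1.12 (SE 0.13, adjusted p = 5.17e-07) and its rise 0.58 (SE 0.13, adjusted p = 0.000862). The lowest DAP1 value, 9.68, was in replicate 4 at 2.8% oxygen, and both calls were kept without that array.

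ERG28, the scaffold that holds the Erg25p, Erg26p and Erg27p complex together, fell by 1.47 (SE 0.13, 2.77-fold, adjusted p = 6.84e-09). Its levels were 12.57, 12.73, 12.11 and 11.86 at 0% oxygen and between 10.41 and 11.22 with oxygen. ERG29, a protein needed for the same demethylation, fell by 0.97 (adjusted p = 5.53e-08), from between 9.70 and 10.33 at 0% to between 8.87 and 9.26 at intermediate oxygen. The 2 relatives of mammalian Insig proteins, NSG1 and NSG2, which stabilise Hmg2p, moved in opposite directions. NSG1 fell by 0.32 (adjusted p = 0.000128) and again by 0.39 (adjusted p = 8.34e-06), and NSG2 rose by 0.32 (adjusted p = 0.00112) and then changed by 0.05 (adjusted p = 0.524). Without replicate 4 at 0% oxygen the rise of NSG2 was 0.25 (adjusted p = 0.0117). BTS1, which diverts farnesyl diphosphate to geranylgeranyl diphosphate, was the dimmest member, with level means from 6.61 to 7.07. Its log2 changes were -0.27 (adjusted p = 0.0127) and -0.17 (adjusted p = 0.0847), and from 0% to 20.9% oxygen it fell by 0.45 (adjusted p = 0.00107). The first change of BTS1 passed without replicate 3 at 0.5% or replicate 3 or 4 at 20.9% oxygen (-0.31 to -0.27, adjusted p from 0.00202 to 0.00926). The second passed without replicate 4 at 20.9% (-0.28, adjusted p = 0.0083).

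Of 9 regulators of sterol genes, 5 were lower at intermediate oxygen than at 0% and 2 higher (17.3% and 15.8% of all genes). From there to 20.9% oxygen 5 rose and 0 fell (21.6% and 26.1% of all genes). UPC2, the sterol sensor, had means of 10.46, 7.67, 7.35, 7.21 and 8.09 in order of oxygen. It fell by 3.05 (SE 0.15, adjusted p = 1.82e-13) and rose by 0.68 (SE 0.15, adjusted p = 0.000454). Its paralogue ECM22 fell by 1.21 (adjusted p = 2.5e-11) and rose by 0.67 (adjusted p = 3.17e-07), and HAP1, the haem-responsive activator, fell by 1.04 (adjusted p = 1.78e-08) and rose by 0.57 (adjusted p = 5.25e-05). These 3 factors and SUT2 were lower at intermediate oxygen than at both ends. The repressors ROX1 and MOT3 rose by 0.75 (adjusted p = 0.000118) and 1.57 (adjusted p = 2.99e-12) from 0% to intermediate oxygen.

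Of 13 genes of sterol uptake, storage and transport 9 were lower at intermediate oxygen than at 0% and 1 higher (17.3% and 15.8% of all genes). The uptake pumps AUS1 and PDR11 had log2 changes of -4.09 (adjusted p = 2.38e-17) and -3.02 (adjusted p = 9.37e-16), while the lowest among the members was -1.63. The sterol esterification enzymes diverged: ARE1 fell by 2.49 (adjusted p = 1.39e-14) and ARE2 rose by 0.74 (adjusted p = 7.32e-05). HES1, a sterol-binding protein, fell by 5.93 (SE 0.33, adjusted p = 3.17e-12) and regained 2.11 (adjusted p = 1.84e-05).

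Other pathways that draw on mevalonate or serve the oxygen-using steps are given by the same 2 contrasts, in which 15.8% and 21.6% of all genes were higher and 17.3% and 26.1% lower. Of 13 genes of other isoprenoid branches 4 were higher and 3 lower at intermediate oxygen than at 0%, and 1 rose and 7 fell from there to 20.9%. COQ2, which attaches the isoprenoid tail of ubiquinone, fell by 0.75 in the second step (adjusted p = 9.86e-08). Of 9 genes that degrade HMG-CoA reductase, 0 were higher and 4 lower in the first step, and 2 were higher and 1 lower in the second. Of 8 genes of haem synthesis, which the P450 enzymes need, 0 were higher and 3 lower in the first step and 1 higher and 5 lower in the second. HEM13, which acts late in haem synthesis, fell by 3.07 (adjusted p = 1.67e-19) and by a further 1.02 (adjusted p = 6.99e-11). HEM14, which also acts late in haem synthesis, fell by 1.15 (adjusted p = 9.52e-10) and then rose by 0.43 (adjusted p = 0.000402), and so dipped. These lists were also chosen with results of these data known.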

How the data were processed

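Each sample of total RNA was hybridised to 1 Affymetrix array for yeast, the GeneChip Yeast Genome 2.0. The deposited values are log2 intensities, which the authors obtained by Robust Multichip Average, which corrects background, equalises quantiles and summarises probes, and they were used as deposited. The table holds 5716 probe sets in 22 arrays. Of these, 5498 matched 1 gene name and 218 none, and 47 genes had several probe sets, of which 1 specific and then the brightest was kept, which left 5449 genes. For 12 genes the symbol was updated to that of the S. cerevisiae reference (assembly R64). The number of arrays and cultivations limits the precision.

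All genes were fitted with limma 3.58.1 in R 4.3.3, with a group for each of the 5 levels and empirical Bayes variances. Adjusted p-values follow Benjamini and Hochberg over 5449 genes per contrast, and p under 0.01 was called. The steps were tested on simulated data. Figures were drawn with Matplotlib 3.10.9. All 30 members are accounted for. Genes of the other lists are named only where called, as examples beside the count of each list, and the mating type genes as a check of the strain. The members and lists were chosen with earlier results of these data known, and so no test was made over members.

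Alternatives were a replicate block, other probe set rules, a filter on dim genes, 2 other normalisations, trended and robust variances, array weights, fits of only the levels compared, and fits without single arrays, without the directly centrifuged samples or with 2 of 4 samples at 0.5 and 2.8%. A fit without the 2 arrays that stand apart, and the settings for the count of dips, were added after seeing the data. A comparison of promoter motifs was planned but not run, because no promoter sequences were used here.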

Additional observations from a re-analysis of the deposited data

Results flagged for a closer look

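In 150 groups of 4 or 6 arrays (30 members at 5 oxygen levels) the highest or lowest array was tested against the rest of its group, and 8 stood apart. Chance alone flags about 1 in 20 groups, which is about as many as were seen. Of these, 4 were at 1%, 3 at 20.9% and 1 at 0.5% oxygen, and the arrays that recurred were replicate 2 at 1% and replicate 4 at 20.9%.

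Replicate 4 at 20.9% oxygen was low for ERG4, at 9.38 against 10.85 to 10.93 in the others, and for ERG2, at 12.02 against 12.55 to 12.65. Replicate 3 at 20.9% was high for MVD1, at 10.67 against 10.57 to 10.58.

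Replicate 2 at 1% oxygen was low for ERG1, at 11.64 against 11.84 to 11.93, and high for ERG4, at 11.11 against 10.91 to 10.96, and for NCP1, at 11.70 against 11.48 to 11.56. Replicate 4 at 1% was low for ERG26, at 10.32 against 10.42 to 10.47. Replicate 3 at 0.5% was low for NSG1, at 8.79 against 8.97 to 9.00.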

How the results depend on the processing

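Of the members' changes between 0 and 20.9%, 0% and intermediate, and intermediate and 20.9% oxygen, 0 of those that were called turned their sign under an alternative that was run. Of those not called, 5 of 9, 1 of 7 and 9 of 17 took both signs. Counted over members and alternatives, a call was lost 24 times from 0 to 20.9%, 36 times from intermediate to 20.9% and 2 times from 0% to intermediate oxygen, and gained 4, 10 and 10 times. The replicate numbers did not clearly pair the samples. Of 36 pairs of arrays with the same number, 13 had deviations that correlated above 0.1 (median 0.05, from -0.59 to 0.58). With different numbers it was 41 of 156 pairs (median -0.01, from -0.60 to 0.64). With a replicate block the count of members called was 3 in place of 5 between 0.5 and 20.9% oxygen, 5 in place of 10 between 1 and 20.9%, and 0 in place of 3 between 0.5 and 2.8%. With the block 6 members dipped in place of 8, since the rises of ERG1 (adjusted p = 0.0269) and ERG24 (adjusted p = 0.0123) to 20.9% were lost. The oxygen-using steps called higher from intermediate to 20.9% were 2 in place of 4 with the block and without the directly centrifuged samples, and 5 with array weights.

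Between 0.5 and 20.9% oxygen 8 members were called with cyclic loess, 10 with array weights, 2 with only those levels in the fit, 10 without the 2 arrays that stand apart, and 3 as the median with 2 of 4 samples at 0.5 and 2.8%. Between 2.8 and 20.9% oxygen 7 in place of 12 were called with only those levels in the fit. Between 0.5 and 2.8% the count was 14 with array weights, 1 with only those levels, 0 without the directly centrifuged samples and 0 with 2 of 4 samples. Between 0.5 and 1% it was 8 with array weights and 1 with only those levels, in place of 0. Between 1 and 2.8% it was 3, 1 and, without the 2 arrays that stand apart, 1, in place of 0. The causes were not tested.

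Leaving out 1 array at a time, counts ranged from 19 to 23 for 0 against 0.5%, 23 to 23 for 0 against 1%, 21 to 22 for 0 against 2.8% and 19 to 21 for 0 against 20.9% oxygen. They ranged from 3 to 8 for 0.5 against 20.9%, 8 to 14 for 1 against 20.9%, 9 to 14 for 2.8 against 20.9%, 0 to 5 for 0.5 against 2.8%, 22 to 24 for 0% against intermediate and 11 to 14 for intermediate against 20.9%. The F test called 24 to 27 members, and 6 to 9 dipped. With no depth in array data, signal was checked only at the dim end, where BTS1 fell under the filter on the dimmest 25% of genes. The bright end was not tested. At 0% oxygen the oxygen-using steps had a mean of 13.08 and the other members 11.21, and the highest value on the arrays was 14.64.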
